A study of Oryza sativa Japonica Group with 4 samples.

Results

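The comparison described here is the change in gene expression of sterile rice anthers between the young microspore (YM) stage and the late pollen mitosis (LpM) stage. The total counts of the *sstl-s* LpM library were set against those of the *sstl-s* YM library, each scaled to its library size, for every gene with at least 10 counts in either library. Of the 35825 genes in the deposited tables, 23810 passed this filter, and 6907 of them carried a gene name while 16903 were given by identifier only. The *sstl-s* plants had sterile panicles and are labelled as the semi-sterile mutant *sstl*, and the *SSTL-F* plants set beside them had fertile panicles and are labelled as the control. Both were segregants from the progeny of semi-sterile plants of 1 T-DNA insertion line in the japonica variety TNG67, in which sterility did not follow the insertion, so the gene behind the sterility is untagged and *SSTL-F* is not an untransformed wild type. All plants grew in a chamber at 28 °C by day and 25 °C by night with 16 h of light and 80% humidity. Whole anthers were taken, so each library holds RNA of the anther wall and of the germ cells together, and there is 1 single-end library of each kind, 4 in all. According to the study's sections, few microspores were free in *sstl-s* at YM, breakdown of the tapetum ran late, and defective pollen with remnants of the tapetum was seen at LpM. Other early-stage sections of *sstl-s* showed undeveloped locules that lacked the specialized wall layers, tapetum included, and pollen mother cells.

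The anther wall has an epidermis, an endothecium, a middle layer and, next to the locule, the tapetum, a secretory layer that feeds the meiocytes and microspores. At the microspore stage the tapetum makes the lipid precursors of sporopollenin, the polymer of the outer pollen wall (exine), and afterwards it dies in a programmed way that in rice is governed by a cascade of bHLH, MYB and PHD-finger factors. Microspores then divide into vegetative and generative cells, the generative cell divides into sperm cells, and the pollen fills with starch. By the stage names, YM to LpM would span the end of meiotic gene activity, exine deposition, tapetum breakdown and the start of pollen filling. Not all markers followed this course, as the tapetum markers below summed to 19954 CPM at YM and 26561 CPM at LpM in *SSTL-F*.

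With 1 library at each stage there was no replicate, so no test was made and no p-value is given, and stage, plant, RNA preparation and library cannot be told apart. A change is the log2 ratio of LpM over YM counts divided by the library total (CPM, scaled to 1000000 counts) with a prior count of 1, and a gene is said to have risen or fallen when it changed by at least 2-fold. Brackets after a log2 change hold its 95% exact (Clopper-Pearson) interval. The counts carried no molecular identifiers, so intervals cover counting error only. Total counts were 11559430 at YM and 11076871 at LpM in *sstl-s*, and 10161675 and 11523243 in *SSTL-F*. The 10 most abundant genes held between 2.11% and 3.93% of the counts, and 3 counts, the smallest level treated as shown, were between 0.260 and 0.295 CPM.

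The tissue label was checked against marker genes. The 20 tapetum markers, taken from the regulators and exine genes below, summed to 11320 CPM at YM and 22037 CPM at LpM in *sstl-s*, and to 19954 and 26561 CPM in *SSTL-F*, and 19 of them were measured. RTS (Os01g0929600), a tapetum-specific rice gene, was the exception with 2 counts in *sstl-s* YM and 0 in the other 3 libraries. The 8 meiocyte markers summed to 451 CPM at YM and 236 CPM at LpM in *sstl-s*. Pollen MADS factors were near 0, and the other genes taken as pollen markers were mixed. MADS62, MADS63 and MADS68, factors of maturing pollen, had between 0 and 1 count in each of the 4 libraries, and 8 of 16 beta-expansins and pollen allergens stayed at 3 counts or fewer in all of them, BETA-EXPANSIN 13 at 0. The other 8 were measured, and the 16 genes summed to 350 CPM at YM and 412 at LpM in *sstl-s* and to 417 and 494 CPM in *SSTL-F*. BETA-EXPANSIN 4, a wall-loosening protein and the most abundant of them, had 1966 and 2129 counts in *sstl-s*. The list was drawn by names, so a measured member is not by itself a sign of pollen. Os09g0388400, Os09g0381400 and UDP-GLUCOSE PYROPHOSPHORYLASE 2, also taken as pollen markers, are given further below. Genes of the carpel and ovule were detected as well. DROOPING LEAF, a carpel identity gene, had 531 counts at YM and 568 at LpM in *sstl-s*, and MADS13, an ovule gene, had 645 and 979. Their part in the results was not tested. In libraries of whole anthers, fewer cells of a type and less RNA per cell cannot be told apart.

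Most genes of the sterile anthers changed little between the stages. Over the 23810 genes the median log2 change was -0.06, with quartiles of -0.30 and 0.20. At the 2-fold line 1482 genes (6.22%) rose and 1193 (5.01%) fell, and at 4-fold 354 (1.49%) rose and 186 (0.781%) fell. For 535 genes (2.25%) the whole counting interval lay above a 2-fold rise, and for 263 (1.1%) it lay beyond a 2-fold fall. Low counts carried many of the calls. Among genes with 10 to 99 counts in the higher library 11.5% rose and 10.1% fell, whereas among genes with at least 1000 counts 3.26% rose and 1.07% fell. Genes with a name rose more often than they fell, at 8.47% against 3.84%, while for genes without a name the shares were 5.31% and 5.49%. Lists drawn by words in gene names, used below, hold named genes only. The authors' RPKM values on a log2(RPKM + 1) scale gave fewer calls, 764 up and 353 down, so that 68.4% of the called genes were higher at LpM against 55.4% from counts. The filter itself cut where genes are sparse, with 304 genes at 10 counts in the higher library just inside it and 333 at 9 counts just outside.

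**Figure D1:**
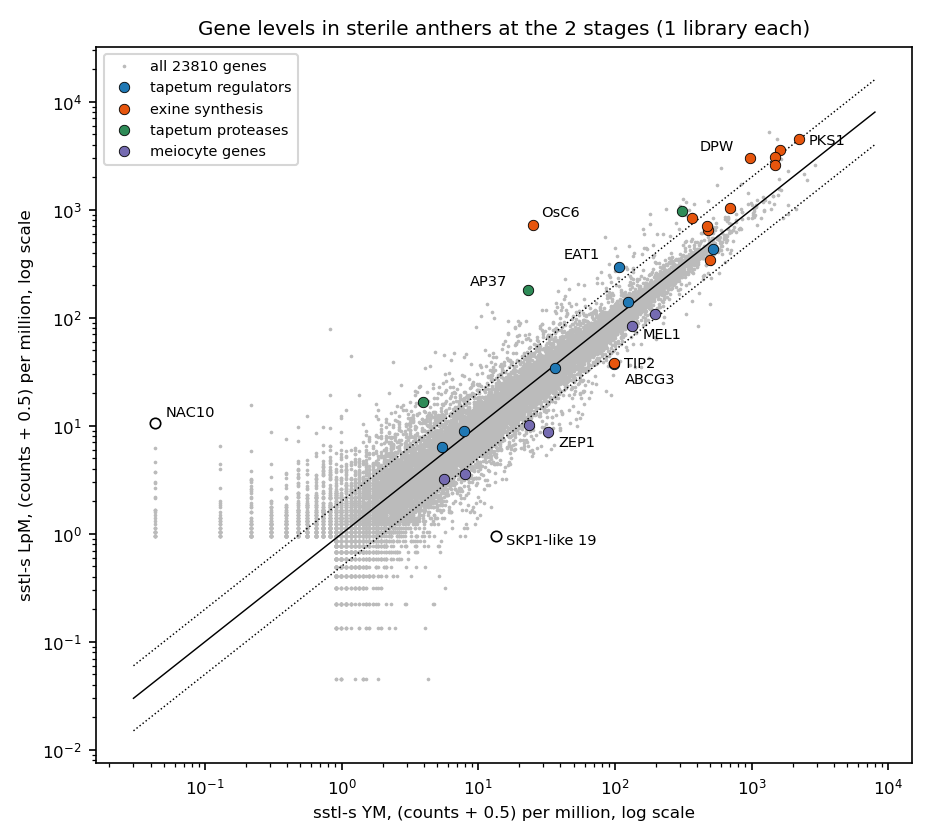
Level of each of the 23810 genes in *sstl-s* at YM (horizontal) and LpM (vertical), in CPM after adding 0.5 counts, on log axes, 1 library each; the solid line is equality, the dotted lines are 2-fold, and white circles mark NAC10 and SKP1-like 19. Most genes lie between the dotted lines, while exine and protease genes such as OsC6 and AP37 lie above them and meiocyte genes such as ZEP1 below.

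Compared per transcript length, exine genes were among the leading transcripts of the sterile anthers at LpM. In the RPKM column the highest gene at YM was type C non-specific lipid transfer protein 2, which went from 2168 RPKM at YM to 1132 at LpM. HIGH MOBILITY GROUP PROTEIN B1, a chromatin protein, followed with 2038 and 1578 RPKM. At LpM METALLOTHIONEIN2B led, at 1972 RPKM at YM and 3689 at LpM. It was followed by the polyketide synthase PKS1 with 1226 and 2616 RPKM and by the fatty acid hydroxylase CYP704B2 with 787 and 1812 RPKM. The serine protease Subtilisin 42 stood at 382 RPKM at YM and 1557 at LpM. Thus 3 of the 5 highest genes per length at LpM had more than 2-fold lower values at YM, and PKS1, CYP704B2 and Subtilisin 42 are these.

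Among named genes with at least 100 counts, several of the largest rises were in genes nearly silent at YM. NAC10 (NAC DOMAIN-CONTAINING PROTEIN 10), a transcription factor, had 0 counts at YM and 116 at LpM, so it was at least 40.4-fold higher against a floor of 3 counts in the YM library. In *SSTL-F* it had 1 and 48 counts. OsC6 (Os11g0582500, named ANTHER SPECIFIC PROTEIN 6 in the files), a lipid transfer protein that the tapetum secretes for exine formation, had 288 counts at YM and 7950 at LpM, or 24.9 and 718 CPM. This was a log2 change of 4.84 (4.68 to 5.02), the largest among genes with over 100 counts at YM. Subtilisin 46, of the serine protease family, had 2 and 173 counts, a ratio of 90.3 in CPM with a log2 interval of 4.62 to 9.55. BETA-AMYLASE 2, of the family that releases maltose from starch, went from 13 counts to 488, a change of 5.19 (4.50 to 6.21). All 4 genes were higher at LpM than at YM in *SSTL-F* too.

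Transporters, wall enzymes and regulators made up much of the rest of the top 15. SWEET15, a sugar exporter, had 27 counts at YM and 433 at LpM (log2 change 4.01, 3.50 to 4.68). Monosaccharide transporter 7 had 5 and 107 counts (4.23, 3.21 to 6.13). YELLOW STRIP-LIKE GENE 11, of a family that carries metal chelates, had 21 and 153 counts (2.87, 2.26 to 3.66). These 3 transporters rose in both genotypes, to 433, 107 and 153 counts at LpM in *sstl-s* and to 249, 931 and 844 in *SSTL-F*. Receptor-like and regulatory genes followed. WALL-ASSOCIATED KINASE GENE 87 had 6 and 137 counts (4.36, 3.42 to 6.05). GAMYB-LIKE 2, a MYB factor, had 64 and 501 (3.01, 2.65 to 3.43). The histone chaperone gene Nucleosome assembly protein 1;3 had 25 and 220 (3.15, 2.60 to 3.86). Among hydrolases, PURPLE ACID PHOSPHATASE 10B, which frees phosphate from organic compounds, went from 121 to 1147 counts (3.30, 3.03 to 3.59). CHITINASE 9 went from 20 to 174 counts (3.12, 2.51 to 3.93), and PECTIN METHYLESTERASE 26, which modifies wall pectin, from 94 to 509 (2.49, 2.18 to 2.83). RAFTIN1, a tapetum product carried to the microspore wall, had 500 and 2511 counts in *sstl-s* and 989 and 5828 in *SSTL-F*, a change of 2.39 (2.25 to 2.53) against 2.38. For RAFTIN1 the stage change was alike in size in both genotypes, with a difference of 0.01 (-0.16 to 0.18), while its level at YM was 43.3 CPM in *sstl-s* and 97.3 CPM in *SSTL-F*. Among genes without a name the leading rises were Os01g0594900, from 9 to 877 counts, and Os03g0666600, from 9 to 215.

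**Figure D2:**
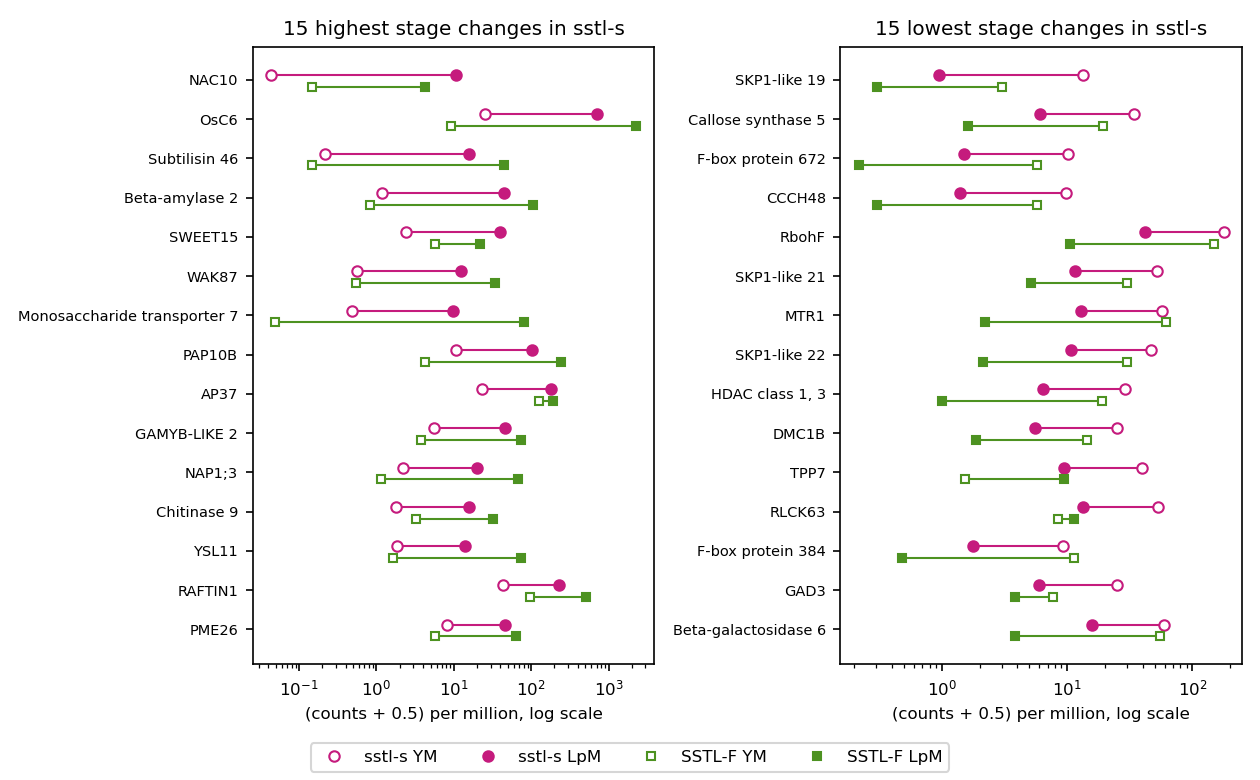
CPM after adding 0.5 counts (log axes) in the 4 libraries for the 15 named genes with the highest and the 15 with the lowest stage change in *sstl-s*, ranked by the interval bound nearest 0; open symbols are YM, filled symbols LpM, circles *sstl-s* and squares *SSTL-F*, 1 library each. Of the 30 genes, TPP7 and RLCK63 are the ones whose filled square lies on the other side of its open square from the *sstl-s* circles.

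The 15 named genes with the largest falls included 3 SKP1-like genes and 2 F-box genes, although each family held more genes that rose than fell. S-PHASE KINASE-ASSOCIATED PROTEIN1-LIKE PROTEIN 19 (SKP1-like 19), an adaptor of SCF ubiquitin ligases, had 155 counts at YM and 10 at LpM, a log2 change of -3.77 (-4.98 to -2.98). SKP1-like 21 had 601 and 127 counts (-2.17, -2.47 to -1.90), and SKP1-like 22 had 541 and 118 (-2.13, -2.44 to -1.85). These similar copies may share reads, so the split of counts among them is uncertain. F-box protein 672 and F-box protein 384, of the family that selects substrates for the same ligases, had 118 and 16 counts and 106 and 19 counts, with changes of -2.75 and -2.36. Callose synthase 5, which makes the callose around meiocytes and tetrads in rice, had 394 counts at YM and 67 at LpM (-2.48, -2.89 to -2.12). In *SSTL-F* it had 197 and 18. The recombinase gene DMC1B (MEIOTIC PROTEIN DMC1B) had 291 and 61 counts (-2.17, -2.62 to -1.79). MICROSPORE AND TAPETUM REGULATOR1 (MTR1), a fasciclin glycoprotein of the male germ cells that both tapetum and microspores need in rice, had 662 and 143 counts (-2.14, -2.42 to -1.89), and in *SSTL-F* 625 and 25. RESPIRATORY BURST OXIDASE HOMOLOG F, an enzyme that makes superoxide, had 2056 and 465 counts (-2.08, -2.23 to -1.94), against 1512 and 122. For MTR1 and this oxidase gene YM levels in CPM differed less between the genotypes than LpM levels, with 57.3 and 61.5 CPM at YM for MTR1 and 12.9 and 2.17 CPM at LpM.

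Other genes in this group of 15 act in metabolism, chromatin and signalling. GLUTAMATE DECARBOXYLASE 3 (GAD3, Os03g0236200), which makes GABA, had 286 and 65 counts (-2.06, -2.49 to -1.68). BETA-GALACTOSIDASE 6, a wall hydrolase, had 686 and 174 (-1.91, -2.17 to -1.68). CLASS-1 TYPE HISTONE DEACETYLASE 3 had 333 and 71 (-2.15, -2.56 to -1.79). ZINC FINGER CCCH DOMAIN-CONTAINING PROTEIN 48, of a family that binds RNA, had 112 and 15 counts (-2.76, -3.72 to -2.06). RECEPTOR-LIKE CYTOPLASMIC KINASE 63 had 619 counts at YM and 148 at LpM (-2.0, -2.27 to -1.74), whereas the *SSTL-F* libraries held 86 and 131. For this kinase the sterile YM library stood apart as the high one of the 4. Of the genes without a name, Os11g0703000 had 4709 and 933 counts and Os11g0599000 had 109 and 13.

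Of 7 factors that govern the tapetum, 1 rose and 1 fell in *sstl-s*, against 6.22% and 5.01% of all genes. EAT1 (Os04g0599300), a bHLH factor of tapetum cell death, had 1248 counts at YM and 3239 at LpM (1.44, 1.34 to 1.53). TIP2 (Os01g0293100), also known as bHLH142, which acts upstream of it in rice, had 1129 and 416 counts (-1.38, -1.54 to -1.22). In *SSTL-F* EAT1 had 1742 and 4237 counts and TIP2 had 994 and 172, so the direction was shared and the fall of TIP2 was larger there, at -2.70. The other 5 changed by less than 2-fold. TDR (Os02g0120500), the bHLH factor of tapetum degeneration, had 6010 and 4811 counts (-0.26, -0.31 to -0.20). GAMYB (Os01g0812000), the gibberellin-regulated MYB factor, had 1449 and 1550 counts (0.16, 0.05 to 0.26). UDT1, PTC1 and MYB80 had intervals that include 0, with 62 and 70, 91 and 98, and 421 and 381 counts. The median of the list was 0.16 in *sstl-s* and -0.18 in *SSTL-F*, against -0.06 and 0.01 over all genes measured in each.

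Most of the listed exine genes were higher at LpM in the sterile anthers. Of 13 genes 12 were measured, 6 rose and 1 fell, and the median log2 change was 0.91 against -0.06 over all genes, of which 6.22% rose. DPW (Os03g0167600), a fatty acyl reductase, had 11181 counts at YM and 33658 at LpM, or 967 and 3039 CPM (1.65, 1.62 to 1.68). CYP704B2 (Os03g0168600), an omega-hydroxylase of fatty acids, had 18774 and 39460 counts (1.13, 1.11 to 1.16). ACOS12 (Os04g0310800), an acyl-CoA synthetase, had 17299 and 34091 (1.04, 1.01 to 1.07). These enzymes build the hydroxylated fatty acyl units of sporopollenin. PKS1 (Os10g0484800), a polyketide synthase that extends them, had 25555 and 49764 counts (1.02, 1.0 to 1.04), just above the 2-fold line. ABCG15 (Os06g0607700), an exporter of wall lipids, had 4254 and 9222 counts (1.18, 1.13 to 1.23). Below the line were CYP703A3 (Os08g0131100), the in-chain hydroxylase, with 17209 and 28841 counts (0.81, 0.78 to 0.83), and NP1 (Os10g0524500) and PKS2 (Os07g0411300), both at about 1.49-fold. NP1 is an oxidoreductase needed for exine, with 5463 and 7820 counts. The list leaves out tetraketide alpha-pyrone reductase 1, a sporopollenin enzyme given with the flavonoid genes. It changed by 0.27 in *sstl-s* and by -1.08 in *SSTL-F*.

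Exporters went in different directions. ABCG3 (Os01g0836600) had 1139 counts at YM and 421 at LpM in *sstl-s* (-1.37, -1.54 to -1.21) and 1053 and 64 in *SSTL-F*. ABCG26 (Os10g0494300) had 5734 and 3778 counts (-0.54, -0.60 to -0.48) and 5479 and 2038 in *SSTL-F*. In *SSTL-F* 2 genes of the list rose and 2 fell, where 12.3% and 4.38% of all genes did, with a median of 0.50. The levels show where the genotypes parted. The summed level of the 12 genes was 10419 CPM at YM and 21083 at LpM in *sstl-s*, and 18751 and 25565 CPM in *SSTL-F*, so the lowest of the 4 sums was that of *sstl-s* YM. For CYP703A3, NP1 and PKS2 the stage change was above 0 in *sstl-s* and below 0 in *SSTL-F* (-0.24, -0.55 and -0.70), each within 2-fold.

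All 3 proteases tied to tapetum death in rice rose in *sstl-s*. AP37 (Os04g0448500), an aspartic protease that EAT1 activates in rice and whose name in the files also holds a second gene product, had 268 counts at YM and 1979 at LpM (2.94, 2.76 to 3.14). In *SSTL-F* it had 1272 and 2234 counts, a change of 0.63, so *sstl-s* YM was the library that stood low. AP25 (Os03g0186900), of the same family and also under EAT1, had 3568 and 10780 counts (1.66, 1.60 to 1.71), against 1890 and 18125 in *SSTL-F*. CP1 (Os04g0670500), a cysteine protease that TDR regulates in rice, had 45 and 185 counts (2.08, 1.62 to 2.60), against 31 and 278. The stage change of AP37 was larger in *sstl-s* than in *SSTL-F* by 2.31 (2.10 to 2.52), whereas that of AP25 was smaller by 1.42, with a difference of -1.42 (-1.51 to -1.34).

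**Figure D3:**
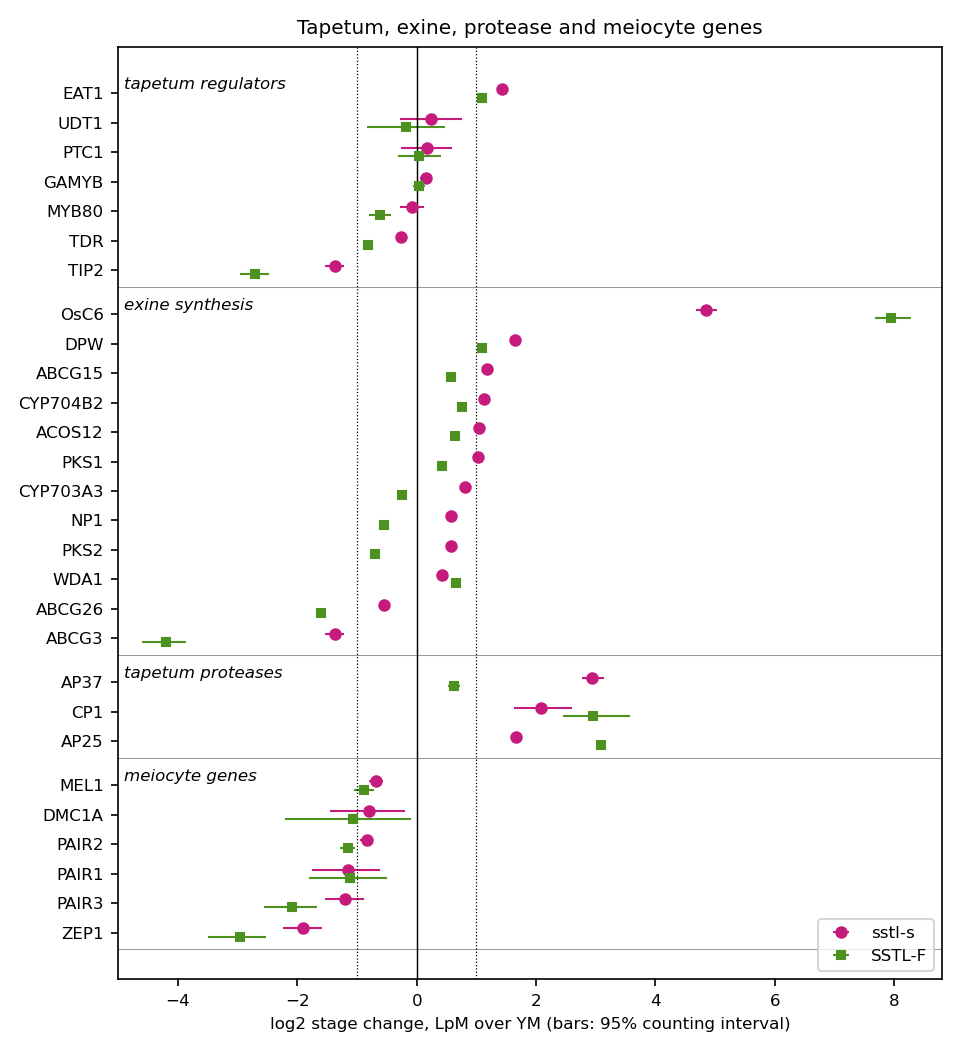
Log2 stage change (LpM over YM, horizontal) of the measured tapetum regulators, exine genes, proteases and meiocyte genes in *sstl-s* (circles) and *SSTL-F* (squares), with 95% counting intervals as bars; dotted lines are 2-fold, and each point compares 2 single libraries. The exine genes from DPW to PKS2 lie further right in *sstl-s*, OsC6 lies further right in *SSTL-F*, and ABCG3 and TIP2 lie further left in *SSTL-F*.

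Meiotic genes were lower at LpM throughout. Of 6 meiocyte genes 3 fell, none rose, all 6 intervals lay below 0 and the median was -1.0. Over all genes 5.01% fell and 6.22% rose. ZEP1 (Os04g0452500), the transverse filament of the synaptonemal complex, had 376 counts at YM and 96 at LpM (-1.90, -2.25 to -1.58). PAIR3 (Os10g0405500) and PAIR1 (Os03g0106300), needed for homologous pairing, had 271 and 113 counts (-1.19, -1.53 to -0.88) and 92 and 39 (-1.16, -1.76 to -0.62). On the log2(RPKM + 1) scale PAIR3 and PAIR1 changed by -0.91 and -0.79, short of 2-fold. PAIR2 (Os09g0506800), a chromosome axis protein, stayed within 2-fold with 2254 and 1206 counts (-0.84, -0.94 to -0.74), as did the germ cell Argonaute MEL1 (Os03g0800200) with 1538 and 918 (-0.68, -0.80 to -0.56). DNA REPAIR PROTEIN RAD51A, chosen after its values were seen, had 327 and 145 counts (log2 change -1.11, or -0.96 from RPKM). In *SSTL-F* 5 of the 6 fell, with a median of -1.13. At LpM the 6 genes summed to 217 CPM in *sstl-s* and 123 CPM in *SSTL-F*, from 398 and 289 CPM at YM.

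General cell cycle genes moved much less. None of 16 DNA replication genes passed 2-fold in either direction in *sstl-s*, the median was -0.32 and the values ran from -0.64 to 0.08. The replication clamp PROLIFERATING CELL NUCLEAR ANTIGEN had 778 and 625 counts (-0.25, -0.41 to -0.10), and REPLICATION PROTEIN A 1 had 950 and 610 (-0.58, -0.73 to -0.43). None of 56 genes drawn by cyclin and cyclin-dependent kinase names passed 2-fold either (the list also holds PROLIFERATING CELL NUCLEAR ANTIGEN and a cyclin-interacting protein), with a median of -0.18 and 29 intervals below 0. CYCLIN-A1-1, a mitotic cyclin, came nearest with 725 and 356 counts (-0.96, -1.15 to -0.78). CYCLIN-B1-4 had 406 and 234 counts (-0.73, -0.97 to -0.50) in *sstl-s* and 582 and 30 in *SSTL-F*, which gives a difference in stage change of 3.68 (3.11 to 4.25). In *SSTL-F* 6 genes of this list fell and 2 rose. Of 12 kinesins and tubulins none passed 2-fold and 11 intervals lay below 0, as for TUBULIN ALPHA-3 CHAIN with 16965 and 12486 counts (-0.38, -0.41 to -0.35). Actin and actin-binding genes, 16 measured, stayed within 2-fold as well, with a median of -0.06. ACTIN 1 had 5783 and 4998 counts.

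Sugar transport rose at several genes while starch synthesis did not. Among named genes as a whole 8.47% rose and 3.84% fell. Of 41 sugar transporters, invertases and sucrose synthases 14 rose and 1 fell, with a median of 0.28, and their summed level went from 3863 to 7031 CPM. Most of that gain was SUCROSE SYNTHASE 2, an enzyme that splits sucrose, with 17662 counts at YM and 49694 at LpM (1.55, 1.53 to 1.58) in *sstl-s* and 23435 and 56274 in *SSTL-F*. Of 11 SWEET exporters, a list picked after the values were seen, 7 rose, among them SWEET7A with 26 and 145 counts (2.50, 1.93 to 3.20) and SWEET7D with 22 and 111 (2.34, 1.73 to 3.13). These 11 are also counted among the 41 genes, and their summed level was 244 CPM at YM and 302 CPM at LpM in *sstl-s*. NEUTRAL/ALKALINE INVERTASE 5 was the member of the 41 that fell, with 116 and 46 counts (-1.26, -1.80 to -0.77). Cell-wall invertase 4, which supplies hexoses to the anther locule, had 491 and 235 counts (-1.0, -1.23 to -0.77), and 496 and 81 in *SSTL-F*. It stood just inside the 2-fold line in *sstl-s*. Vacuolar invertase 2 (Os02g0106100), also named invertase 3, had 449 and 431 counts in *sstl-s* (0.0, -0.19 to 0.20) and 735 and 1600 in *SSTL-F*. None of 19 starch synthesis genes passed 2-fold in *sstl-s* or in *SSTL-F*, and the medians were -0.17 and -0.33. ADP-GLUCOSE PYROPHOSPHORYLASE LARGE SUBUNIT 4, with 198 and 237 counts (0.32, 0.04 to 0.60), and ADP-GLUCOSE PYROPHOSPHORYLASE LARGE SUBUNIT 2, with 532 and 295 (-0.79, -1.0 to -0.58), were among the highest and the lowest. BETA-AMYLASE 1, named after its values were seen, had 20 and 89 counts beside the rise of BETA-AMYLASE 2.

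Enzymes and proteins of the wall and cuticle varied widely within their families. Of 63 GDSL esterases, a family that includes lipases of the cuticle and pollen coat, 16 rose and 5 fell, beside 6.22% and 5.01% of all genes. For named genes, the source of such lists, the shares were 8.47% and 3.84%. GDSL ESTERASE/LIPASE PROTEIN 30 had 6945 and 26855 counts (2.01, 1.97 to 2.05) in *sstl-s* and 18122 and 24117 in *SSTL-F*, and GDSL ESTERASE/LIPASE PROTEIN 96 had 3470 and 11989 (1.85, 1.80 to 1.91) and 3774 and 17378. For the first of these *sstl-s* YM was again the low library of the 4. GDSL ESTERASE/LIPASE PROTEIN 110 fell, with 197 and 71 counts (-1.40, -1.82 to -1.01). Of 42 lipid transfer proteins 11 rose and 3 fell, with a median of 0.23 in *sstl-s* and 0.87 for the same genes in *SSTL-F*. The list was drawn by words in names and leaves out OsC6, a lipid transfer protein described above, whose log2 change was 4.84. The 4 members of the list with the most counts did not rise. Type C non-specific lipid transfer protein 2 fell from 19622 to 9354 counts (-1.01, -1.04 to -0.97) in *sstl-s*, against 4453 and 7216 in *SSTL-F*. Non-specific lipid transfer protein 1.1 had 7479 and 6224 counts (-0.20, -0.25 to -0.15), against 14585 and 831, and lipid transfer protein 2.2 had 10937 and 9313, against 17617 and 4844. The fall of the type C gene sat on the 2-fold line and was -0.95 with TMM scaling. Lipid transfer proteins 1.1 and 2.2 kept high counts in *sstl-s* LpM that *SSTL-F* LpM no longer had.

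Genes of pectin, lignin and cellulose differed in how many rose, beside 8.47% of named genes that rose and 3.84% that fell. Of 17 measured pectin enzymes, all of them pectin methylesterases, 2 rose and none fell, with a median of 0.39. Of 47 class III peroxidases, enzymes that cross-link wall polymers, 12 rose and none fell, with a median of 0.36 in *sstl-s* and 0.85 in *SSTL-F*. Class III peroxidase 134 had 70 and 162 counts (1.26, 0.86 to 1.70), and the most abundant, class III peroxidase 118, had 1733 and 1419 (-0.23, -0.33 to -0.12). Of 31 cellulose synthases and related synthases 1 rose. This was CELLULOSE SYNTHASE A7, of the secondary wall, with 89 and 193 counts (1.17, 0.81 to 1.56, but 0.92 from RPKM), and CELLULOSE SYNTHASE A1, of the primary wall, had 8824 and 8477 (0.0, -0.04 to 0.05). Of 39 lignin and phenylpropanoid genes 13 rose and 3 fell. 4-COUMARATE:COENZYME A LIGASE 3 had 260 and 702 counts (1.49, 1.29 to 1.71), LACCASE 12 had 47 and 149 (1.70, 1.24 to 2.23), and CINNAMYL ALCOHOL DEHYDROGENASE 6 had 210 and 93 (-1.11, -1.48 to -0.75, but -0.92 from RPKM). Of 37 arabinogalactan proteins, wall glycoproteins of the cell surface, 2 rose and 7 fell, and the median was -0.06 in *sstl-s* and 0.79 for the same genes in *SSTL-F*. ARABINOGALACTAN PROTEIN 13 had 1055 and 419 counts (-1.27, -1.44 to -1.11), against 461 and 1042, and ARABINOGALACTAN PROTEIN 4 had 111 and 31 (-1.75, -2.40 to -1.19), against 38 and 66. In both of these *sstl-s* YM and *SSTL-F* LpM were the high libraries.

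Flavonoid genes rose in several cases and fell in none in *sstl-s*, where 8.47% of named genes rose and 3.84% fell. Of 18 measured genes 8 rose and the median was 1.0, beside 0.93 for the same genes in *SSTL-F*, where 10 of 19 measured rose and 2 fell. CHALCONE SYNTHASE, the entry enzyme of the pathway, had 336 counts at YM and 1318 at LpM (2.03, 1.86 to 2.21) in *sstl-s* and 106 and 2356 in *SSTL-F*. Chalcone isomerase_1, the next enzyme, had 536 and 2048 (1.99, 1.86 to 2.14), against 1291 and 2004. The list was drawn by words in gene names and also holds genes of other pathways. Tetraketide alpha-pyrone reductase 1, a sporopollenin enzyme also named after dihydroflavonol reductase, had 18441 and 21244 counts (0.27, 0.24 to 0.29), against 39784 and 21398. A fatty acid elongase that shares the words chalcone synthase had 149 and 525 (1.87, 1.61 to 2.15).

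**Figure D4:**
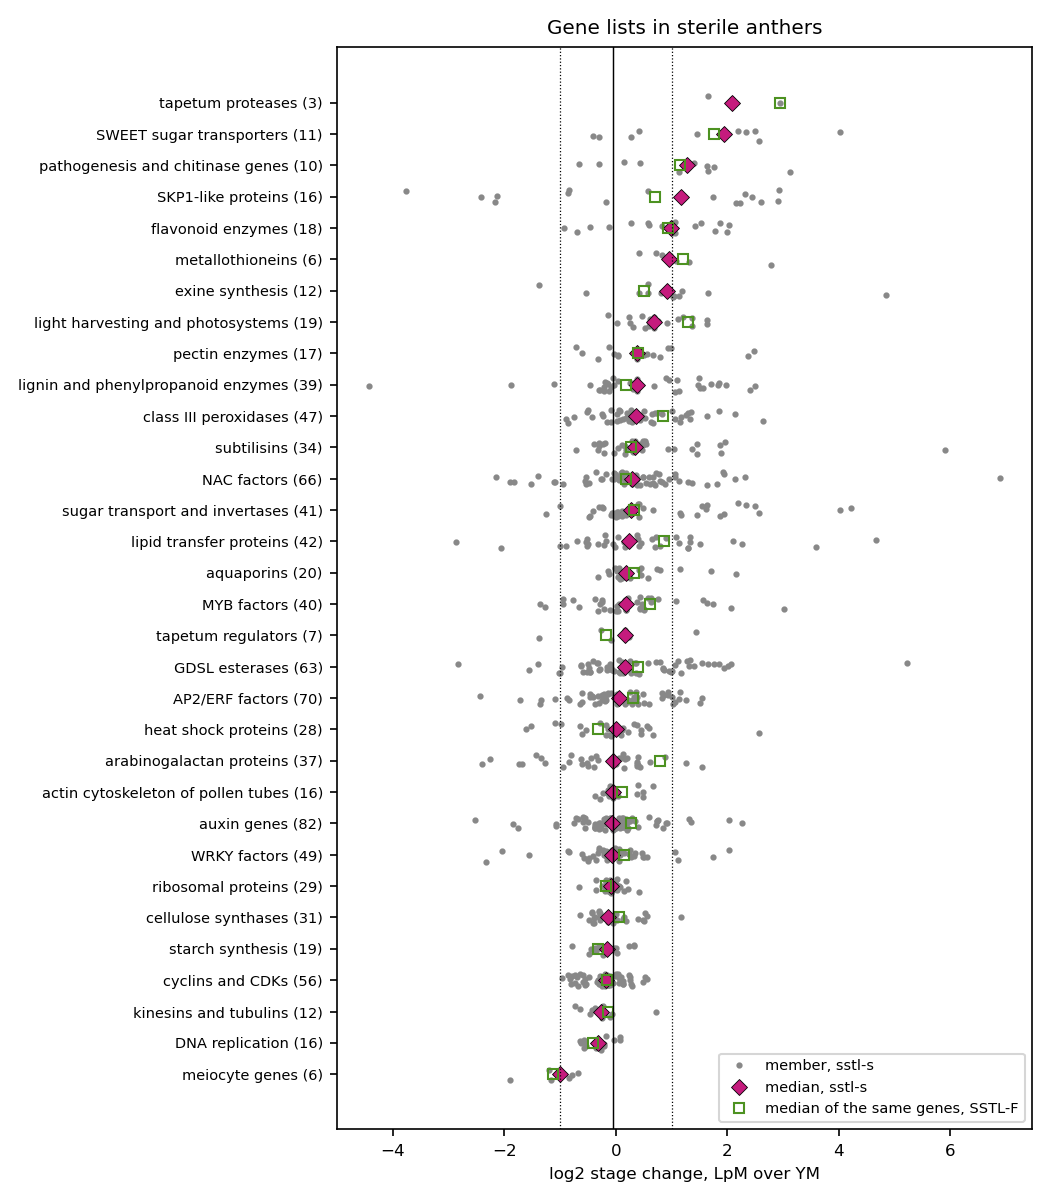
Log2 stage change (LpM over YM) in *sstl-s* of each member of 32 gene lists (dots, with the number measured after each name), the list median in *sstl-s* (diamonds) and the median of the same genes in *SSTL-F* (squares); the solid line is the median of all genes and the dotted lines are 2-fold. Among the lists shown, proteases, SWEET exporters, chitinase, SKP1-like and flavonoid genes have the highest medians and meiocyte genes the lowest. The square lies well right of the diamond for arabinogalactan proteins, lipid transfer proteins, peroxidases and light harvesting genes.

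Photosynthesis, stress and defence genes shifted upward in part, beside shares of 8.47% up and 3.84% down among named genes. Of 19 light harvesting and photosystem genes 6 rose, none fell and the median was 0.68 in *sstl-s* and 1.30 for the same genes in *SSTL-F*. The list holds 1 transcription factor by its name only. CHLOROPHYLL A/B BINDING PROTEIN 2R, of the light-harvesting antenna, had 860 and 2557 counts (1.63, 1.52 to 1.75), and CHLOROPHYLL A/B BINDING PROTEIN 1R had 597 and 1479 (1.37, 1.23 to 1.51). All 6 metallothioneins, small metal-binding proteins, had changes above 0 and 3 of them rose. METALLOTHIONEIN2B had 19038 and 32506 counts (0.83, 0.81 to 0.86) and METALLOTHIONEIN I-2B had 2184 and 5192 (1.31, 1.24 to 1.38). Of 10 pathogenesis-related and chitinase genes 6 rose, including CLASS I CHITINASE with 3245 and 8256 counts (1.41, 1.35 to 1.47), and its *SSTL-F* counts were 3224 and 20673. Of 28 heat shock genes 1 rose and 3 fell with a median near 0. HEAT SHOCK PROTEIN 101, a disaggregase, had 282 and 88 counts (-1.61, -1.98 to -1.27), against 338 and 23 in *SSTL-F*. The abundant heat shock protein 70 had 27820 and 23624 (-0.17, -0.20 to -0.15). Of 29 ribosomal protein genes and 18 proteasome and polyubiquitin genes none passed 2-fold, with medians of -0.08 and 0.08, and of 28 autophagy genes 1 rose and 1 fell. AUTOPHAGY ASSOCIATED GENE 18D was the one that rose, with 62 and 143 counts (1.25, 0.83 to 1.72).

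Most of these transcription factor families held both risers and fallers. Of all genes 6.22% rose and 5.01% fell, and of named genes, from which the lists were drawn, 8.47% and 3.84%. In the AP2/ERF and WRKY families the shares were not far from these. Of 66 NAC factors 12 rose and 7 fell. NAC118 and NAC119 (NAC DOMAIN-CONTAINING PROTEIN 118 and 119) fell together, with 744 and 199 counts (-1.84, -2.07 to -1.61) and 115 and 24 (-2.15, -2.90 to -1.55). In *SSTL-F* NAC118 went from 513 to 17 counts. Of 40 MYB factors 6 rose and 2 fell, and Cold induced MYB 1 had 102 and 414 counts (2.07, 1.77 to 2.41). Of 70 AP2/ERF factors 7 rose and 5 fell. ETHYLENE RESPONSE FACTOR 64 had 853 and 2325 counts (1.51, 1.39 to 1.62) and ETHYLENE RESPONSE FACTOR 104 had 251 and 72 (-1.73, -2.14 to -1.36). Of 49 WRKY factors 4 rose and 3 fell, with WRKY GENE 25 at 30 and 120 counts (2.02, 1.47 to 2.69). Of 26 MADS-box factors 2 rose and none fell. The abundant floral organ factor MADS7 (MADS BOX GENE 7) had 8972 and 10154 counts (0.24, 0.20 to 0.28), and MADS55 (MADS BOX GENE 55) had 311 and 695 (1.22, 1.03 to 1.42). Of the 26 intervals 10 lay above 0 and 4 below.

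Hormone and calcium genes stayed mostly within 2-fold, as did most genes, since 6.22% of all genes rose and 5.01% fell. Among named genes, the source of these lists, 8.47% rose and 3.84% fell. Of 82 auxin genes 4 rose and 5 fell, with AUXIN RESPONSE FACTOR 7A at 405 and 985 counts (1.34, 1.18 to 1.51) and the abundant AUXIN RESPONSE FACTOR 1 at 9341 and 7287 (-0.30, -0.34 to -0.25). Of 13 gibberellin genes 1 rose, a GID1L2-like receptor gene with 204 and 426 counts (1.12, 0.88 to 1.37), and GIBBERELLIN 20-OXIDASE 1, a late enzyme of gibberellin synthesis, had 257 and 480 (0.96, 0.74 to 1.19). Of 24 jasmonate genes 1 rose and 2 fell, and of 15 abscisic acid and dehydration genes 1 rose and 1 fell. The abundant members of these lists, ALLENE OXIDE CYCLASE of jasmonate synthesis with 1070 and 1224 counts and DEHYDRIN 1 with 1840 and 1281, changed by 0.26 and -0.46. Of 55 calcium-dependent kinases and calcineurin B-like partners 2 rose and 1 fell. Of 29 glutathione S-transferases 4 rose and 1 fell. Of 20 genes drawn by aquaporin names, 1 of which is a palmitoyltransferase, 3 rose, led by NOD26 LIKE INTRINSIC PROTEIN 4;1 with 1154 and 4916 counts (2.15, 2.06 to 2.25) in *sstl-s* and 337 and 9225 in *SSTL-F*. PLASMA MEMBRANE INTRINSIC PROTEIN 1A, the most abundant aquaporin by counts, had 12560 and 11973 (-0.01, -0.04 to 0.03).

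The families behind the largest changes were listed after the values were seen, and their counts are a description. Beside them, 8.47% of named genes rose and 3.84% fell. The 16 SKP1-like genes split, with 8 that rose and 4 that fell, and the median of 1.16 dropped to 0.20 when at least 50 counts were required. SKP1-like 10 (S-PHASE KINASE-ASSOCIATED PROTEIN1-LIKE PROTEIN 10) had 59 and 254 counts (2.15, 1.75 to 2.60) and SKP1-like 25 had 32 and 172 (2.45, 1.94 to 3.08), opposite to SKP1-like 19, 21 and 22. Their summed level was 535 CPM at YM and 423 CPM at LpM. Of 370 F-box proteins 47 rose and 16 fell, with a median of 0.03. F-box protein 31 had 213 and 905 counts (2.14, 1.93 to 2.37). Of 34 subtilisins, serine proteases of the cell wall space, 8 rose and none fell. Subtilisin 42 alone had 15502 and 57616 counts (1.96, 1.93 to 1.98), and it carried most of the summed rise from 2876 to 7261 CPM. Of 59 CCCH zinc finger genes 3 rose and 5 fell. Of 14 trehalose phosphate synthases and phosphatases, which make and remove a sugar signal, 2 fell and none rose. They were TREHALOSE-6-PHOSPHATE PHOSHPHATASE 7 (TPP7), with 457 and 105 counts (-2.05, -2.38 to -1.75), and TREHALOSE-6-PHOSPHATE SYNTHASE 8, with 1126 and 324 (log2 change -1.73). Of 5 measured microspore-preferred genes 2 rose and 1 fell. Rice microspore-preferred 2 had 2 and 42 counts in *sstl-s* (3.89, 2.51 to 7.55) and 0 and 230 in *SSTL-F*, and rice microspore-preferred 9 had 16 and 4 (-1.71, -3.98 to -0.31).

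Of the genes that the study names by identifier 20 were followed here, and the study chose them on these same samples, so their values are no independent evidence. In *sstl-s* 1 rose, 1 fell and 18 stayed within 2-fold, while in *SSTL-F* 8 rose and 3 fell. The one that rose was the cysteine protease gene Os09g0381400, with 55 counts at YM and 535 at LpM (3.32, 2.94 to 3.77), against 86 and 1824 in *SSTL-F*. GAD3, described above, was the one that fell. The esterase genes GELP63 (Os05g0209600), GELP73 (Os05g0518300) and GELP77 (Os06g0156600) changed by 0.73 (0.56 to 0.90), 0.06 (-0.28 to 0.40) and 0.95 (0.81 to 1.09) in *sstl-s*, against 2.0, 1.42 and 1.37 in *SSTL-F*. The peroxidase genes PRX39 (Os03g0234900) and PRX133 (Os11g0210100) changed by 0.47 and 0.36, against 1.45 and 1.30. Each of these 5 genes had its highest count in *SSTL-F* LpM. The HAD-like hydrolase gene Os09g0388400 had 60 and 33 counts in *sstl-s* and 752 and 389 in *SSTL-F*, so its stage changes, -0.78 (-1.46 to -0.16) and -1.13, lay close together while its levels differed. Xanthine dehydrogenase (Os03g0429800), an enzyme of purine breakdown, had 6894 and 5055 counts, against 13786 and 5861. GAPDH (Os04g0486600) and enolase 2 (Os10g0167300), of glycolysis, changed by 0.27 (0.23 to 0.30) and 0.24 (0.20 to 0.27), each below 2-fold but beyond counting error.

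The same stages in fertile anthers, which share no library with the sterile comparison, showed a wider change. In *SSTL-F* 2902 of 23577 genes (12.3%) rose and 1032 (4.38%) fell. Over the 12609 genes with at least 100 counts in all 4 libraries, the SD of the log2 stage change was 0.36 in *sstl-s* and 0.51 in *SSTL-F*, and across these genes, which are not independent and share depth and annotation, the 2 stage changes had a Pearson correlation of 0.63. Of the genes that rose in *sstl-s*, 931 also rose in *SSTL-F*, which is 62.8% of the *sstl-s* list and 32.1% of the *SSTL-F* list. Of those that fell, 340 also fell in *SSTL-F*, 28.5% and 32.9% of the lists. Genes that rose in *SSTL-F* had a median change of 1.61 there and 0.70 in *sstl-s*, and genes that fell in *SSTL-F* had medians of -1.50 and -0.75, where the *SSTL-F* value chose the genes. Genes chosen as falling in *sstl-s* had medians of -1.36 in *sstl-s* and -0.37 in *SSTL-F*, whereas for genes that rose in *sstl-s* the medians were 1.49 and 1.44. The median absolute log2 difference between libraries over the 12609 genes was 0.17 between the *sstl-s* stages and 0.25 between the *SSTL-F* stages. From *sstl-s* LpM it was 0.21 to *SSTL-F* LpM and 0.22 to *SSTL-F* YM, and 1.91% and 3.32% of the genes differed by at least 2-fold, so more genes stood far from *SSTL-F* YM than from *SSTL-F* LpM.

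**Figure D5:**
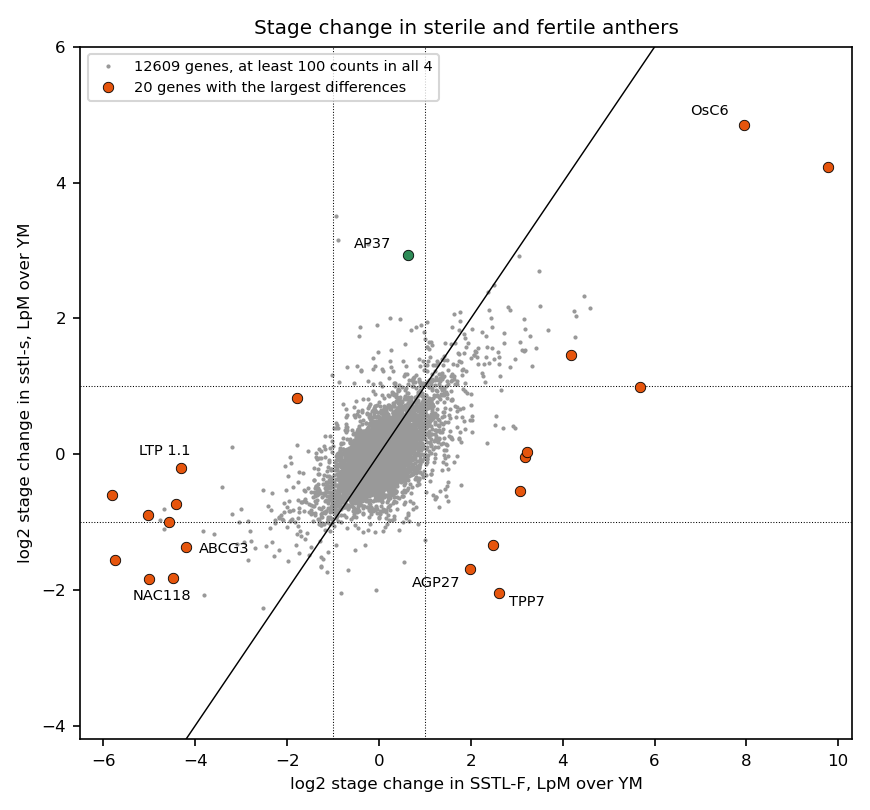
Log2 stage change (LpM over YM) of each gene with at least 100 counts in all 4 libraries in *SSTL-F* (horizontal) and *sstl-s* (vertical); the solid line is equality, dotted lines are 2-fold, large orange circles are the 20 named genes with the largest differences (these may have fewer counts) and the green circle is AP37. The cloud is wider along the *SSTL-F* axis, and lipid transfer protein 1.1, ABCG3 and NAC118 lie far left while TPP7 and AGP27 lie below 0 for *sstl-s* and above 0 for *SSTL-F*.

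The stage change differed by at least 2-fold between the genotypes for 3851 of 24543 genes (15.7%), as 1027 (4.18%) higher and 2824 (11.5%) lower in *sstl-s*. The whole interval of the difference lay past 2-fold for 236 (0.962%) and 434 (1.77%). Where the sterile change was the higher one, all 10 leading genes fell in *SSTL-F*, while 5 fell and none rose in *sstl-s*. The difference itself ranked these genes, so a fall in *SSTL-F* was in part built into the choice. Non-specific lipid transfer protein 1.1 differed by 4.11 (4.0 to 4.22). ZINC FINGER CCCH DOMAIN-CONTAINING PROTEIN 47 had 468 and 152 counts, against 382 and 7, a difference of 4.20 (3.15 to 5.24). Protein phosphatase 2C42 had 1485 and 402, against 1488 and 74 (2.67, 2.30 to 3.04), and ABCG3 differed by 2.83 (2.43 to 3.22). PROTEIN TRANSPORTER 3 had 270 and 138 counts, against 377 and 12. For each of these 5 genes *sstl-s* LpM stayed above *SSTL-F* LpM in counts. GIBBERELLIN 2-OXIDASE 9, which inactivates gibberellin, instead had 155 and 264 counts, against 280 and 91, a difference of 2.62 (2.17 to 3.06).

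Where the sterile change was the lower one, all 10 leading genes rose in *SSTL-F*, while in *sstl-s* 3 rose and 3 fell. Here the ranking in turn favoured a rise in *SSTL-F*. OsC6 differed by -3.11 (-3.45 to -2.77), with *SSTL-F* counts of 92 and 26113. Subtilisin 12 had 1042 and 2754 counts, against 237 and 4878, a difference of -2.71 (-2.93 to -2.50). DEHYDRATION-RESPONSIVE ELEMENT-BINDING PROTEIN 1B, a stress factor, had 52 and 100 counts, against 2 and 171 (-4.70, -6.42 to -2.98). ABA-8'-HYDROXYLASE 1, which breaks down abscisic acid, had 227 and 223 counts, against 53 and 566 (-3.18, -3.66 to -2.69). VQ motif-containing protein 1 had 193 and 179, against 35 and 366 (-3.22, -3.79 to -2.64). For these last 4 genes *sstl-s* YM already held more counts than *SSTL-F* YM, so the smaller change came from a higher start and a lower end. Monosaccharide transporter 7 had 0 counts in *SSTL-F* YM and 931 at LpM, at least 274-fold higher against the floor of 3 counts, and 5 and 107 in *sstl-s*.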

How the data were processed

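Total RNA of anthers was sequenced by the authors as single-end 90-bp reads on an Illumina HiSeq 2000 and processed in CLC Genomics Workbench 11, with genes as annotated in RAP-DB. Mapping settings and genome build are not given in the sources used here. The authors deposited for each library a total count of reads per gene, on which all results rest. The deposited RPKM column was used to compare genes per length and as an alternative. The RPKM ratio of *sstl-s* LpM over YM was higher than that of CPM by 0.07 on the log2 scale for genes with at least 1000 counts at both stages. The deposited TPM column and the deposited CPM column, treated as a score because its sum differs between libraries, were only inspected.

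Counts were divided by total counts, with a prior count of 1 in log2 changes. Intervals are exact Clopper-Pearson intervals, and those of a difference between genotypes are 1.96 standard errors from the 4 counts. Total counts of 10161675 to 11559430 set the precision. The steps were tested on simulated counts that held counting error only, so this does not cover variation between plants or libraries. Members and lists were chosen with earlier results of these data known, and 7 of the 47 lists were chosen after the values were seen. Lists were drawn by words in gene names or by RAP-DB ID, so a list may hold a gene of another kind. Of 47 listed IDs 6 were found by ID and 41 by name and place in the file order. Sequences and coordinates were not used here.

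The rule for named genes took the 15 highest and 15 lowest named genes with at least 100 counts, ranked by the interval bound nearest 0, all members of lists given by ID, in other lists up to 4 abundant members and 3 per direction, and 10 per direction by difference between genotypes. A name had to say what the product is. Unnamed genes were held to 2 per direction. Genes named outside the rule are DROOPING LEAF, RAD51A, the pollen MADS factors, BETA-EXPANSIN 13, BETA-AMYLASE 1, TREHALOSE-6-PHOSPHATE SYNTHASE 8, rice microspore-preferred 2, the genes named as highest by RPKM and those so marked. Alternatives were TMM of edgeR 4.0.16, size factors of DESeq2 1.42.0, totals without the 10 most abundant genes of each library, log2(RPKM + 1), prior counts of 0.25 and 5, no filter and at least 50 counts. Further software was matplotlib 3.10.9, scipy 1.17.1, pandas 2.3.3, R 4.3.3, numpy 2.4.6 and Python 3.11.15.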

Additional observations from a re-analysis of the deposited data

Results flagged for a closer look

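Among genes with at least 100 counts in 1 of the 4 libraries, 13 changed by at least 2-fold in opposite directions between the stages, 4 of them upward in *sstl-s* and 9 downward. The 7 with a name are given here, the first 4 of them named after their values were seen, and the difference was not tested, since each genotype has 1 library at each stage. CALMODULIN-LIKE PROTEIN 16, a calcium sensor, had 327 counts at YM and 137 at LpM in *sstl-s* and 77 and 275 in *SSTL-F*, a difference in log2 stage change of -2.83. GDSL ESTERASE/LIPASE PROTEIN 32 had 52 and 24, against 44 and 119, and differed by -2.26. ABC TRANSPORTER G FAMILY MEMBER 10 had 26 and 52, against 105 and 55, and differed by 2.13. PHOSPHOLIPASE D ALPHA 5, an enzyme that makes phosphatidic acid, had 40 and 108, against 37 and 14, and differed by 2.99. ARABINOGALACTAN PROTEIN 27 had 305 and 90, against 71 and 322, and differed by -3.67. TPP7 (TREHALOSE-6-PHOSPHATE PHOSHPHATASE 7) had 457 and 105, against 15 and 109, and differed by -4.66. Rhomboid 17, of a family of membrane proteases, had 187 and 70, against 27 and 176, and differed by -3.83. For 3 of them the *sstl-s* change fell short of 2-fold in other settings. That of GDSL ESTERASE/LIPASE PROTEIN 32 was -0.97 with TMM or DESeq2 factors, -0.92 with a prior count of 5 and -0.65 from RPKM. That of ABC TRANSPORTER G FAMILY MEMBER 10 was 0.93 with a prior count of 5 and 0.64 from RPKM, and that of PHOSPHOLIPASE D ALPHA 5 was 0.99 from RPKM. In CPM the *sstl-s* and *SSTL-F* libraries of TPP7 were alike at LpM, at 9.48 and 9.46, and differed at YM, at 39.5 and 1.48.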

How the results depend on the processing

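The count of genes that rose in *sstl-s* (1482) was between 1188 and 1609 with TMM, DESeq2 size factors, totals without the most abundant genes and prior counts of 0.25 or 5. The count that fell (1193) was then between 863 and 1251, and that of genes whose stage change differed (3851) between 2957 and 4090. The other 3 settings moved them by over 1.5 times. With log2(RPKM + 1) they were 764, 353 and 1391. With no filter (30349 genes in *sstl-s*) they were 3477, 1993 and 7319, and with at least 50 counts (18182 genes) 716, 516 and 1753. The last 2 settings test more or fewer low genes by construction. The cause of the RPKM shift was not tested, but that scale adds 1 to genes of low RPKM. TMM and DESeq2 factors moved the log2 changes in *sstl-s* up by about 0.06. Among the 423 named genes and 46 lists followed, none past the 2-fold line changed sign under any of the 8 settings. Other genes were not checked for this. Of 423 named genes 19 dropped below the line with RPKM, 3 with TMM and 4 with a prior count of 5. The median of pathogenesis and chitinase genes fell from 1.27 to 0.64 with RPKM and to 0.92 with at least 50 counts, and that of flavonoid enzymes ran up to 1.18. No paired analysis was possible because each genotype and stage has 1 library, and for the same reason no library could be left out. Depth limits low genes: at 10 counts in the higher library a 2-fold change is within counting error.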

Other observations

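Other anther genes, named after their values were seen, are given as values. ANTHER SPECIFIC PROTEIN 4 had 4263 counts at YM and 10045 at LpM in *sstl-s* and 1635 and 18752 in *SSTL-F*, with log2 stage changes of 1.30 and 3.34. ANTHER-SPECIFIC PROTEIN 8 had 228 and 940 counts, against 261 and 1003, a log2 stage change of 2.10 in *sstl-s*. RICE MEIOTIC CROSSOVER 1, a gene of meiotic recombination, had 103 and 46 counts, against 88 and 41. UDP-GLUCOSE PYROPHOSPHORYLASE 2, of sugar nucleotide metabolism, had 41 and 15 counts, against 30 and 26. CALMODULIN-LIKE PROTEIN 15 had 125 and 130 counts, against 23 and 256, so the *sstl-s* libraries lay between the *SSTL-F* stages.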
